A study of Homo sapiens with 7 samples.

Results

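The keratin genes described here are KRT8, KRT18, KRT19, KRT20, KRT7, KRT10, KRT15, KRT80, KRT81 and KRT86, 10 of the 20072 gene symbols with a row in the deposited table. They were taken by symbol, with no threshold on a measured value, though earlier results of these data were known when the list was drawn up. HCT116, an established human colorectal carcinoma cell line, was sampled in log phase with no treatment or genotype contrast. The culture was serum-free and supplied with epidermal growth factor, insulin and transferrin. Transcription rate (TR) was read by GRO-seq, a nuclear run-on in which polymerases already on the DNA lengthen labelled RNA that is then sequenced, in 2 libraries. mRNA abundance (RA) was read by RNA-seq of mRNA in 3 libraries. Translation activity (TA) was read by polysome profiling, which sequences mRNA that sediments with polysomes after cycloheximide has been used to hold ribosomes in place, in 2 libraries. All 7 libraries came from the same cell line, so the design compares assays and not cell types or treatments.

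Keratins are the intermediate filament proteins of epithelial cells. A keratin filament is built from heterodimers of a type I (acidic) and a type II (basic to neutral) chain, and a chain without a partner is usually unstable as a protein. KRT8 and KRT18 are the main pair of simple epithelia such as the lining of the colon, KRT19 is a type I partner in the same cells, and KRT20 marks the differentiated cells of the gut lining. KRT7 is the type II keratin of many ductal epithelia, KRT10 and KRT15 are type I keratins best known from the epidermis and its basal layer, KRT80 is a type II keratin found in many epithelia, and KRT81 and KRT86 are type II keratins of the hair cortex. Of the 10, KRT18, KRT19, KRT20, KRT10 and KRT15 are type I, and KRT8, KRT7, KRT80, KRT81 and KRT86 are type II.

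The type I genes other than KRT18 lay on chromosome 17 and the type II genes on chromosome 12, with KRT18 beside KRT8. Positions are in GRCh37, the build of the deposited values.

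Some keratin rows share sequence with other places in the genome, which bears on their read counts. Of the 50-base stretches of the canonical exons, 41.1% for KRT8, 35.0% for KRT18, 42.7% for KRT81 and 36.9% for KRT86 occurred elsewhere in the genome, against 0.751% or less for each of the other 6 keratins. KRT81 (chr12:52679697-52685318, minus strand) lies inside the annotated span of KRT86 (chr12:52643084-52702947, plus strand), with no exon base in common. Their coding sequences share a stretch of 309 identical bases, at chr12:52684881-52685189 in KRT81 and at chr12:52695761-52696069 in KRT86. Its first 60 bases are shown because a read from them cannot be assigned to one gene.
KRT81 and KRT86: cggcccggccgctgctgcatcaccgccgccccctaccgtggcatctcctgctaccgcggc
In all, 560 of the 50-base stretches were common to both genes, 37.2% of those of KRT81 and 32.5% of those of KRT86. Exons of KRT8 transcripts on the opposite strand cover 26.5% of the canonical exon length of KRT18. Exons of KRT7-AS cover 13.6% of that of KRT7, and exons of KRT10-AS1 cover 2.85% of that of KRT10. Exons of non-coding genes and pseudogenes cover 20.2% of that of KRT86. The counting mode and strand setting are not given in the sources used here, so reads of these genes and of their copies or antisense partners cannot be told apart, and the values of KRT8, KRT18, KRT81 and KRT86 are uncertain to that extent.

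The deposited values are RPKM, reads scaled by exon length and library size, so levels of different genes can be compared per length. Library sizes worked out from the values ranged from 3391897 to 5629982 reads for TR, from 20299018 to 22532134 for RA and from 22421062 to 30805391 for TA. Between 99.74% and 99.8% of each size lay on the listed genes. The sizes therefore stand for reads counted in exons and not for all reads sequenced. Among markers of the cell type, 9 of 12 epithelial genes had a mean RA of at least 1 RPKM, or 6 of 9 without KRT8, KRT18 and KRT19. EPCAM stood at 210 RPKM and CDH1 at 47.1. Of the intestinal genes, CDX2 stood at 8.96 RPKM and CDX1, VIL1 and LGALS4 at 0.00915, 0.0118 and 0.0984 RPKM. The summed RA of 8 fibroblast and mesenchyme markers was 20.4 to 21.7 RPKM. Of the 8, 3 had a mean RA of 1 RPKM or more, COL1A1 at 11.5, FN1 at 7.84 and VIM at 1.4, and COL1A2 was at 0. None of 5 blood markers and none of 3 endothelial markers reached 1 RPKM, with summed RA of at most 0.458 and 0.225 RPKM. Because the libraries are bulk samples, fewer cells with an mRNA and less of it per cell cannot be told apart.

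KRT19, KRT8 and KRT18 were far above the other keratins in TR, RA and TA. Values below are given in replicate order. KRT19 had the highest level, with a TR of 582 and 651 RPKM, an RA of 808, 1014 and 1111 RPKM and a TA of 2065 and 2487 RPKM. KRT8 had a TR of 250 and 197 RPKM, an RA of 605, 745 and 750 RPKM and a TA of 1470 and 1518 RPKM. KRT18 had a TR of 182 and 180 RPKM, an RA of 264, 513 and 406 RPKM and a TA of 1304 and 979 RPKM. The 3 parameters did not overlap for any of these genes, with TR lowest and TA highest in each.

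Among 20056 genes with values, ranked from the highest RPKM down, KRT19 stood at place 16 and 17 in TR, at 32, 34 and 16 in RA and at 7 and 4 in TA. KRT8 stood at 82 and 133 in TR, at 52, 50 and 37 in RA and at 13 and 11 in TA. KRT18 stood at 139 and 155, at 163, 73 and 82, and at 16 and 26 in the same order. In TA, all 3 genes were therefore among the 26 genes with the highest values in both libraries.

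**Figure D1:**
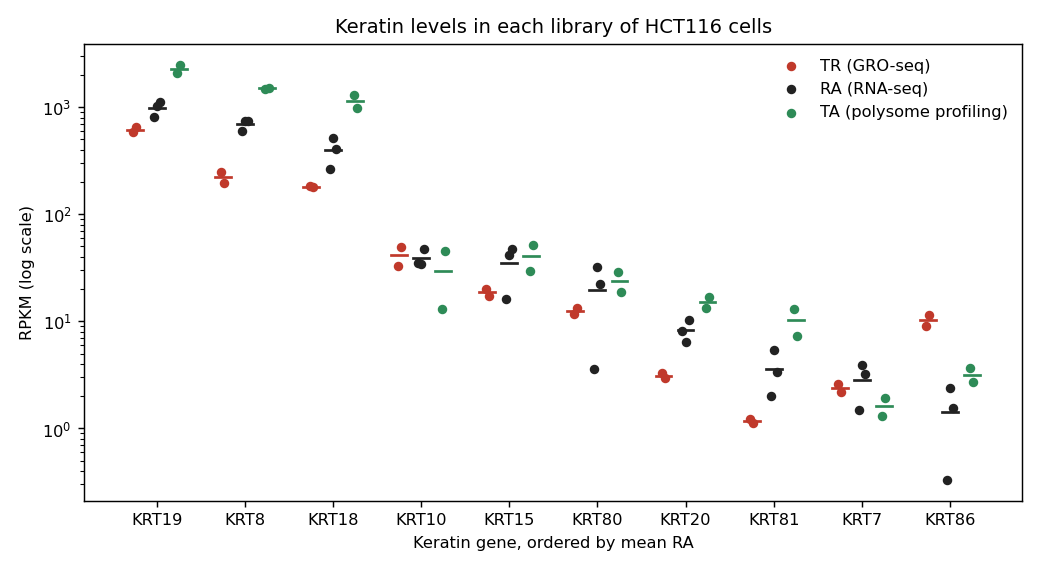
RPKM (log scale) of each keratin in each library, with TR in red, RA in black and TA in green; points are libraries and short lines are the means of 2, 3 and 2 libraries. KRT19, KRT8 and KRT18 lie at about 180 RPKM or more in every library, and the other keratins at 51.7 RPKM or less.

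The levels of the other 7 keratins were at most 51.7 RPKM in any library. In TR, the order of the means was KRT19, KRT8, KRT18, KRT10, KRT15, KRT80, KRT86, KRT20, KRT7 and KRT81, and no neighbours in this order overlapped. In RA, the order after KRT18 was KRT10, KRT15, KRT80, KRT20, KRT81, KRT7 and KRT86. There the ranges of KRT10 and KRT15, of KRT15 and KRT80, of KRT80 and KRT20, of KRT81 and KRT7, and of KRT7 and KRT86 overlapped. In TA, the order after KRT18 was KRT15, KRT10, KRT80, KRT20, KRT81, KRT86 and KRT7, with overlap between KRT15 and KRT10 and between KRT10 and KRT80. KRT86 moved from the seventh place in TR to the last in RA, and KRT81 from the last in TR to the eighth in RA and TA.

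The summed RPKM of the 10 keratins was 1095 and 1125 in TR, 1744, 2399 and 2402 in RA and 4941 and 5129 in TA. As a share of the RPKM of all genes this was 0.324% and 0.323% in TR, 0.461%, 0.605% and 0.641% in RA and 1.25% in both TA libraries. KRT8, KRT18 and KRT19 together made up 92.6% and 91.3% of the sum in TR, 96.2%, 94.7% and 94.4% in RA and 97.9% and 97.2% in TA. Within it, the share of KRT8 was 22.8% and 17.5% in TR and between 29.6% and 34.7% in the RA and TA libraries, and the share of KRT19 was 53.2% and 57.8% in TR and between 41.8% and 48.5% in the others. KRT10 fell in share from 3.03% and 4.43% in TR to between 1.43% and 2.02% in RA and to 0.264% and 0.890% in TA. These shares are descriptions without a test. The 10 genes held between 93.8% and 98.6% of the RPKM of all keratin rows in every library.

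**Figure D2:**
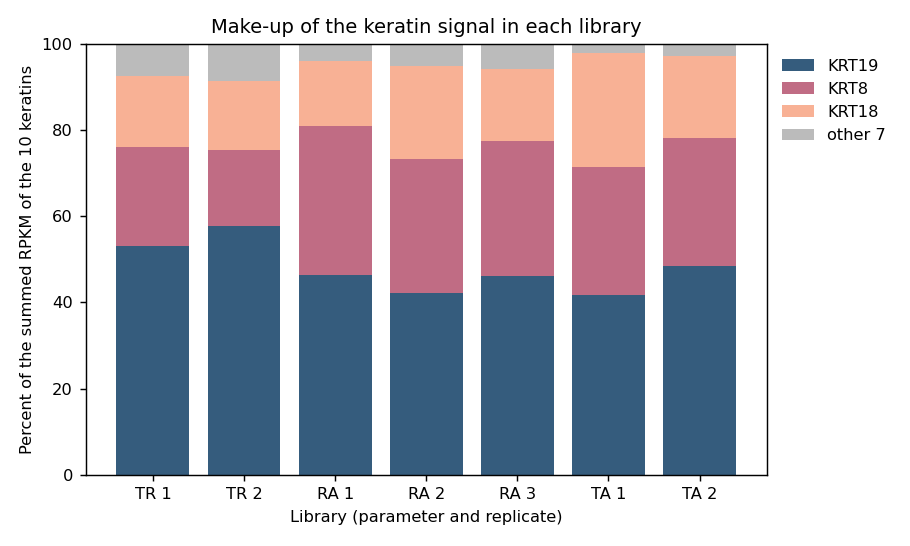
Percent of the summed RPKM of the 10 keratins in KRT19, KRT8, KRT18 and the other 7, for each of the 7 libraries. KRT19 is the largest share in each, at 41.8% to 57.8%, and the share of the other 7 is smaller in the TA than in the TR libraries.

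To ask how steady-state mRNA stood against nascent transcription, RA was compared with TR gene by gene, as the stability index log2(RA/TR). KRT8, KRT18, KRT20 and KRT81 had higher RA than TR and KRT86 had lower, while the other 5 keratins did not pass the test. The test was limma's on log2(RPKM + 0.1) with Benjamini-Hochberg adjustment over 14305 genes and a threshold of 0.05, and all 10 keratins passed the filter on low values. Fold changes on this scale understate those of low genes. Of all genes tested, 2743 (19.2%) had higher RA than TR and 6870 (48.0%) had lower, against 4 and 1 of the 10 keratins. The median log2 ratio was 0.71 over the 10 keratins and -0.58 over all genes tested. Those all-gene figures include genes that passed the filter through TR alone, which favours a lower RA. Under a filter of 1 RPKM in each parameter, which all 10 keratins pass, 2632 genes were higher and 3656 lower. The keratin calls were then still 4 and 1. No all-gene median is given under that filter. A library's RPKM are shares of that library, so each ratio is relative to the other genes of both assays. With each library centred on its median, 5066 genes were higher and 4814 lower, and KRT19 (log2 ratio 1.33) and KRT15 (1.44) were also higher. KRT86 was still lower (-2.41), and KRT10 changed from a log2 ratio of -0.08 to 0.59 without passing the test in either. The higher calls were KRT8 and KRT20 alone without either TR library, and KRT15 and KRT80 joined the 4 without RA replicate 1. KRT86 was not called without TR replicate 2. The study calls its replicates biological, while the labels do not say which came from separate cultures. The p-values measure the spread between these libraries.

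To ask how polysomal mRNA stood against total mRNA, TA was compared with RA, as the translation index log2(TA/RA). KRT8, KRT18, KRT19, KRT20 and KRT81 had higher TA than RA, and no keratin had lower by limma's test, with 5 keratins at an unadjusted p under 0.05, the same number as the calls. Of all genes tested, 953 (6.66%) were higher and 4173 (29.2%) lower. The median log2 ratio was 0.99 over the 10 keratins and -0.37 over all genes tested. Under a filter of 1 RPKM in each parameter, 960 genes were higher and 3224 lower, and 5 keratins were higher. After centring, the count of keratins with higher TA was again 5, while 2713 genes were higher and 1404 lower. With no filter on low values KRT18 alone passed, and with only the RA and TA libraries in the fit KRT8 and KRT18 did. The calls rest on both TA libraries. Without TA replicate 1 none of the 10 keratins passed, with log2 ratios of 1.12 for KRT8, 1.36 for KRT18 and for KRT19, 1.04 for KRT20 and 1.12 for KRT81. Without TA replicate 2 the higher calls were KRT18 (1.78) and KRT81 (1.94), and KRT10 was lower (-1.55). Without RA replicate 3 they were KRT18 and KRT20, without RA replicate 2 they were KRT8, KRT18, KRT19, KRT81 and KRT86 (1.95), and without either TR library KRT18 alone passed, although its TA and RA values do not change then. Without RA replicate 1 the same 5 were higher and KRT7 was lower (-1.11). In each of these fits, and in every other alternative tried, KRT8, KRT18, KRT19 and KRT20 kept a positive log2 ratio, as did KRT81 or its row merged with KRT86.

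**Figure D3:**
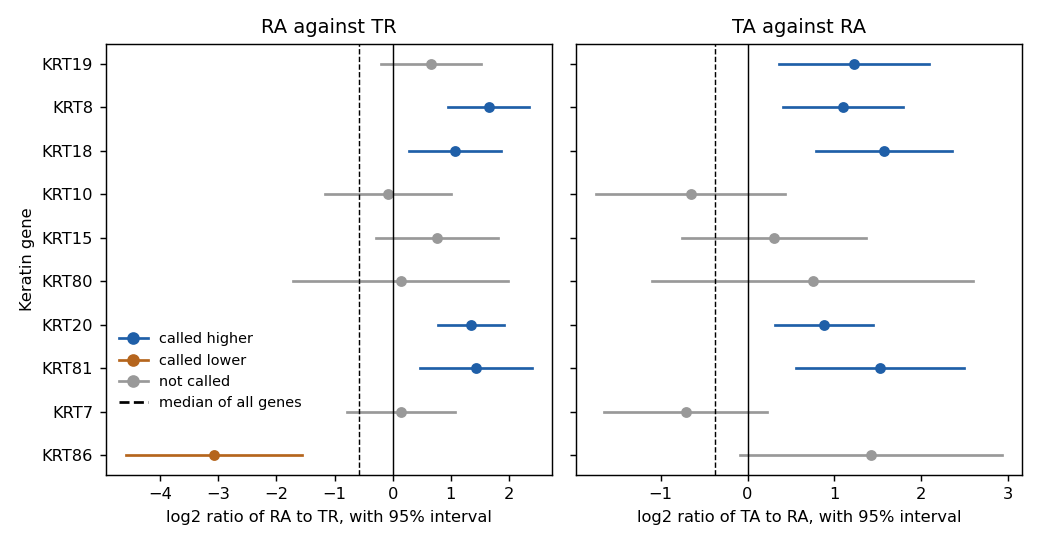
log2 ratio of RA to TR (left) and of TA to RA (right) for each keratin, with 95% intervals from limma; blue marks higher, brown lower and grey neither at an adjusted p of 0.05, and the dashed line is the median of all 14305 genes tested. KRT8, KRT18, KRT20 and KRT81 are higher in both panels, and KRT86 is lower in the left panel at -3.08.

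Across both steps, TA was higher than TR for KRT8, KRT18, KRT19, KRT20 and KRT81. The log2 ratios were 2.75 ± 0.33 (SE), 2.64 ± 0.37, 1.88 ± 0.41, 2.23 ± 0.27 and 2.96 ± 0.46. Their adjusted p by limma ran from 0.00011 for KRT8 and KRT20 to 0.0032 for KRT19, and all 5 passed with each library left out in turn. KRT8, KRT18, KRT19 and KRT20 passed in every other alternative tried, and so did KRT81 where it kept its own row. Merged with KRT86 it did not pass (0.11, adjusted p = 0.85). Of all genes, 2439 (17.0%) were higher in TA than TR and 8231 (57.5%) lower, with a median log2 ratio of -1.08 against 1.47 over the keratins. After centring these counts were 5436 and 5044. With at least 1 RPKM required in each parameter they were 2336 and 4935. The main filter also admits genes through TR alone, which favours a lower TA among all genes. KRT15 (1.07, adjusted p = 0.084) and KRT80 (0.89, adjusted p = 0.38) missed the threshold, and both passed without RA replicate 1, with adjusted p = 0.0092 and 0.019. No keratin was lower in TA than TR, but KRT86 (-1.65, adjusted p = 0.065) was so without RA replicate 1 (adjusted p = 0.0015) or RA replicate 2 (0.023), and KRT10 was so without TA replicate 2 (-1.63, adjusted p = 0.0034). Leaving out an RA library changes the estimate of the spread but not the log2 ratio of TA to TR. With only the TA and TR libraries in the fit, limma called 7 keratins higher. KRT15 (adjusted p = 0.013) and KRT80 (0.016) were then among them, and KRT86 was lower (0.0009). At an unadjusted p under 0.05 in the main fit, limma's count was 5, the same as the calls. This comparison shares its libraries with the other comparisons and is no independent evidence for them.

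KRT8 and KRT18, the pair that forms the simple-epithelium filament, were higher in RA than TR and again higher in TA than RA. For KRT8 the log2 ratio of RA to TR was 1.65 ± 0.30 (SE), 3.14-fold, with an adjusted p of 0.0015. Its TA was 2.14-fold its RA, with a log2 ratio of 1.1 ± 0.30 and an adjusted p of 0.025. KRT8 stood at percentile 95.7 of all genes tested in the first ratio and 98.9 in the second. For KRT18 the corresponding ratios were 1.07 ± 0.34 (2.10-fold, adjusted p = 0.023) and 1.57 ± 0.34 (2.97-fold, adjusted p = 0.011), at percentiles 89.3 and 99.95. KRT18 lost its call in RA against TR without TR replicate 1 (1.08, adjusted p = 0.12), without TR replicate 2 (1.06, adjusted p = 0.12) and without RA replicate 3 (1.02, adjusted p = 0.066), whereas KRT8 kept it in all 7. In TA against RA it was KRT18 that kept its call more often, though not throughout. There KRT8 lost its call by limma without RA replicate 3 (adjusted p = 0.06) and with no filter (0.064), whereas KRT18 kept it (0.035 and 0.044). Both genes lost that call without TA replicate 1, as above. KRT18 varied more among the RA libraries than KRT8, by 1.95-fold from lowest to highest against 1.24-fold.

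The ratio of KRT8 to KRT18 within a library does not depend on that library's scaling. It was 1.37 and 1.1 in TR, 2.30, 1.45 and 1.85 in RA and 1.13 and 1.55 in TA. KRT8 thus exceeded KRT18 per length in every library, and the RA ratios lay above the TR ratios without overlap. The difference in mean log2 ratio, RA minus TR, was 0.58 (exact two-sided permutation p = 0.20, adjusted over 3 comparisons 0.60), and 0.20 is the smallest p this test can give for 3 against 2 libraries. TA minus RA was -0.47 (exact permutation p = 0.40, adjusted 0.60) with overlapping ranges, and TA minus TR was 0.11 (exact permutation p = 0.667, where 0.333 is the smallest possible). A p of 0.05 was therefore out of reach of this permutation test, whatever the size of the difference.

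Summed over the type II and the type I members, the ratio of type II to type I RPKM was 0.334 and 0.25 in TR, 0.542, 0.491 and 0.482 in RA and 0.443 and 0.433 in TA. The 3 parameters did not overlap, with RA highest and TR lowest. The difference in mean log2 ratio was 0.80 for RA minus TR (exact two-sided permutation p = 0.20), -0.20 for TA minus RA (exact permutation p = 0.20) and 0.60 for TA minus TR (exact permutation p = 0.333), each at the smallest p this test can give for these numbers of libraries, with adjusted values of 0.30, 0.30 and 0.333. Without KRT8 and KRT18 the difference RA minus TR turned to -0.92 and TA minus TR to -1.26, so the direction rested on that pair. Without the pair the ratio was at most 0.0402 in any library, with KRT19 in the type I sum. It describes the other type II keratins beside KRT19 and not their level as such, and KRT80 reached 32.4 RPKM in RA.

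KRT19, the most abundant keratin, was higher in TA than RA but did not pass the test in RA against TR. Its log2 ratio of TA to RA was 1.23 ± 0.37 (SE), 2.34-fold, with an adjusted p of 0.036, at percentile 99.5 of all genes tested. Its log2 ratio of RA to TR was 0.65 ± 0.37 with an adjusted p of 0.15 and a 95% interval of -0.21 to 1.51. The RA values of KRT19 nevertheless lay above its TR values without overlap. It passed in RA against TR with centred libraries, as above, and with no trend in the variance (adjusted p = 0.026). Its call in TA against RA by limma was lost with no filter on low values (adjusted p = 0.16). It was also lost with only the RA and TA libraries in the fit (adjusted p = 0.058).

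KRT20, the keratin of differentiated gut epithelium, was far less abundant than KRT19 and passed the test upward in both ratios. Its TR was 3.27 and 2.95 RPKM, its RA 8.05, 6.39 and 10.3 RPKM and its TA 13.3 and 16.8 RPKM, with no overlap between parameters. The log2 ratio was 1.35 ± 0.24 (SE) for RA to TR (adjusted p = 0.0015) and 0.88 ± 0.24 for TA to RA (adjusted p = 0.027). The first held with every library left out, with log2 ratios from 1.15 to 2.03 over all alternatives. Its TR rested on 20 and 30 reads, for which exact Poisson 95% intervals were 2 to 5.05 and 1.99 to 4.21 RPKM. These intervals cover counting error only.

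KRT7, the ductal keratin, was near the bottom of the order in each parameter. Its TR was 2.60 and 2.19 RPKM, its RA 1.48, 3.89 and 3.20 RPKM and its TA 1.30 and 1.91 RPKM. The RA range covered both TR values and overlapped the TA values. The log2 ratio was 0.14 ± 0.41 (SE) for RA to TR, with a 95% interval of -0.79 to 1.08, and -0.71 ± 0.41 for TA to RA, with an interval of -1.65 to 0.23. It was the least abundant of the 10 in TA, with 68 and 73 reads.

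KRT10 and KRT15, the epidermal type I keratins, did not pass the test in any of the 3 comparisons. KRT10 had a TR of 33.2 and 49.9 RPKM, an RA of 35.2, 34.3 and 47.1 RPKM and a TA of 13.0 and 45.6 RPKM. Its TA libraries differed 3.50-fold, the largest gap among the 10 keratins in TA, and the log2 ratio of TA to RA was -0.65 with an interval of -1.74 to 0.44. It was 0.25 without TA replicate 1 and -1.55 without TA replicate 2. KRT15 had a TR of 20 and 17.3 RPKM, an RA of 16.0, 41.7 and 47.5 RPKM and a TA of 29.6 and 51.7 RPKM. RA replicate 1 of KRT15 lay below both TR values, and RA replicates 2 and 3 lay above them. Its log2 ratio of RA to TR was 0.77 with an interval of -0.29 to 1.82, and 1.25 (adjusted p = 0.0054) without RA replicate 1. Its log2 ratio of TA to RA was 0.30, and it was -0.19 without RA replicate 1 and -0.10 without TA replicate 2.

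KRT80 was the most variable keratin of the 10 in RA. Its TR was 11.7 and 13.4 RPKM, its RA 3.58, 32.4 and 22.4 RPKM and its TA 28.9 and 18.9 RPKM. RA replicate 1 lay below TR and the other RA replicates above it. The log2 ratio of RA to TR was 0.14 ± 0.80 (SE), with an interval of -1.71 to 1.99, and it was 1.1 (adjusted p = 0.0092) without RA replicate 1. The log2 ratio of TA to RA was 0.75 ± 0.80, and -0.21 without that library. The SD of its log2 RA stood at percentile 99.7 of all genes tested.

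The hair keratins KRT81 and KRT86 moved in opposite directions between TR and RA. KRT81 had a TR of 1.23 and 1.12 RPKM, an RA of 2.01, 5.41 and 3.39 RPKM and a TA of 13.1 and 7.36 RPKM, with no overlap between parameters. KRT86 had a TR of 9.02 and 11.4 RPKM, an RA of 0.330, 2.40 and 1.56 RPKM and a TA of 3.66 and 2.71 RPKM, also with no overlap, but with TR highest. The log2 ratio of RA to TR was 1.43 ± 0.42 (SE) for KRT81 (adjusted p = 0.016) and -3.08 ± 0.65 for KRT86 (adjusted p = 0.0034). KRT81 lost that call without TR replicate 1 (1.5, adjusted p = 0.10) or TR replicate 2 (1.36, adjusted p = 0.13), and KRT86 lost it without TR replicate 2 (-2.91, adjusted p = 0.068). The TR of KRT81 rested on 8 and 12 reads, with exact Poisson 95% intervals of 0.533 to 2.43 and 0.577 to 1.95 RPKM, and RA replicate 1 of KRT86 on 14 reads, with an interval of 0.180 to 0.553 RPKM.

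Both genes had positive log2 ratios of TA to RA, of 1.53 ± 0.42 (SE) for KRT81 (adjusted p = 0.025) and 1.42 ± 0.65 for KRT86, which missed the threshold (adjusted p = 0.12). The ratio of KRT81 to KRT86 within a library was 0.137 and 0.0980 in TR, 6.10, 2.26 and 2.17 in RA and 3.56 and 2.72 in TA. KRT86 was therefore above KRT81 in both TR libraries and below it in all 5 RA and TA libraries. Because they share sequence, the genes were also merged into 1 row, weighted by exon length. The merged level was 5.31 and 6.48 RPKM in TR, 1.13, 3.84 and 2.43 RPKM in RA and 8.15 and 4.93 RPKM in TA. Its log2 ratio was -1.37 ± 0.47 for RA to TR (adjusted p = 0.030), 1.48 ± 0.47 for TA to RA (adjusted p = 0.041) and 0.11 ± 0.51 for TA to TR (adjusted p = 0.85), so the merged row followed KRT86 in the first ratio. The part of shared sequence and overlapping transcripts in the difference between KRT81 and KRT86 was not tested.

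The RA replicates differed several-fold for some keratins and little for KRT8 and KRT19. RA replicate 1 was the lowest of the 3 for 8 of the 10 keratins, against 38.2% of all genes tested, and RA replicate 2 was the lowest for the other 2, KRT20 and KRT10. On RPKM + 0.1, RA replicate 2 exceeded RA replicate 1 by 8.83-fold for KRT80, 5.81-fold for KRT86, 2.61-fold for KRT81 and 2.59-fold for KRT15, but by 1.23-fold for KRT8 and 1.26-fold for KRT19. Some other keratins of stratified epithelium and hair also varied by several-fold. RA replicate 2 exceeded replicate 1 by 8.39-fold for KRT17, 5.67-fold for KRT14, 5.52-fold for KRT16 and 10.4-fold for KRT83, a hair keratin. Others did not, with folds of 0.822 for KRT13 and 1.16 for KRT9. The folds of 1.16 for KRT12, 1 for KRT37 and 0.842 for KRT39 rest on values near 0. RA was 0 in both libraries for KRT37 and 0.0247 and 0.0446 RPKM for KRT12, so the added 0.1 sets or flattens their folds. For KRT39, RA replicate 3 was 2.14-fold replicate 1. KRT13, KRT14, KRT16, KRT17 and KRT83 were named after their values were seen. In RA replicate 3, the fold over replicate 1 was 6.13 for KRT80, 3.86 for KRT86, 5.97 for KRT14, 3.30 for KRT16, 2.86 for KRT17 and 6.27 for KRT83. The SD of log2 RA over the replicates was above the median of all genes tested (0.26) for 7 of the 10 keratins. In TR the 10 keratins differed by at most 1.5-fold between replicates.

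**Figure D4:**
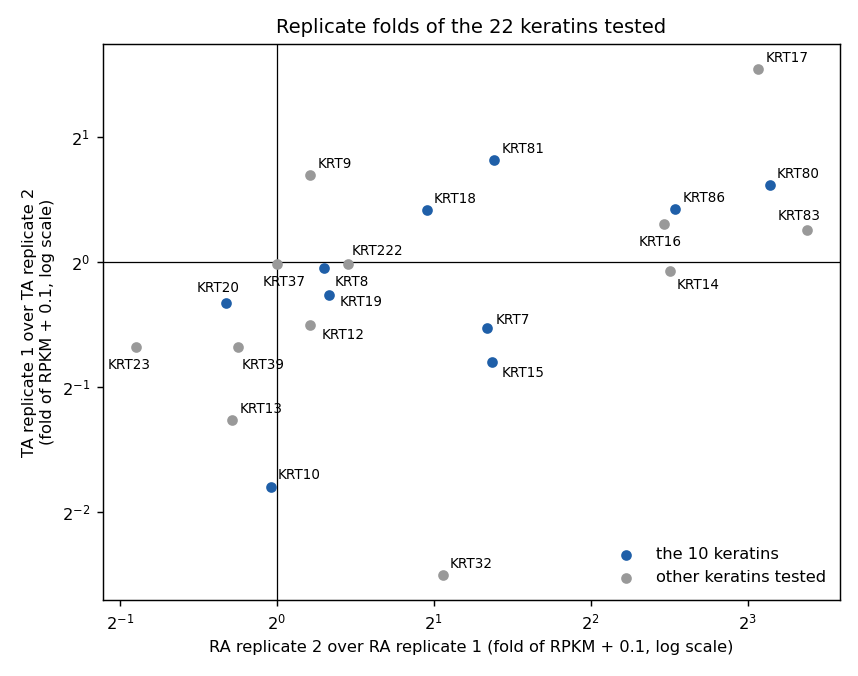
Fold of RA replicate 2 over RA replicate 1 (horizontal) and of TA replicate 1 over TA replicate 2 (vertical), both on RPKM + 0.1 and log axes, for the 22 keratins tested; blue marks the 10 keratins described here and grey the others. KRT80, KRT86, KRT14, KRT16, KRT17 and KRT83 lie at 5.52-fold or more on the horizontal axis, and KRT8 and KRT19 lie near the centre.

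The table held 45 other keratin rows, of which 5 were at 0 in every library and 12 passed the filter on low values. Counted by mean, 9 of the 45 had a TR, 7 an RA and 9 a TA of at least 1 RPKM. In RA against TR, 2 of the 12 were higher, 4 lower and 6 not called, with a median log2 ratio of -0.13, beside 19.2% higher and 48.0% lower among all genes. In TA against RA, 2 were higher and none lower by limma, with 4 higher and 0 lower at an unadjusted p under 0.05 and a median of 0.66. Among all genes, 6.66% were higher and 29.2% lower there. In TA against TR, 4 were higher and 4 lower, beside 17.0% higher and 57.5% lower among all genes. Without TR replicate 2, 3 were called in RA against TR and 4 in TA against TR, and without TA replicate 1 none was called in TA against RA and 5 in TA against TR. Without RA replicate 2, 5 were called in TA against RA, and 1 was without RA replicate 3 or TA replicate 2. KRT23 was the most abundant of them in RA, at 34.9, 18.7 and 28.6 RPKM, against a TR of 35.6 and 39.5 RPKM and a TA of 18.2 and 29.4 RPKM, and it was not called in either ratio.

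In RA against TR, the largest changes among the other keratins were in genes with TR and almost no RA. The hair keratin KRT37 had a TR of 1.37 and 1.45 RPKM and an RA of 0, 0 and 0.0283 RPKM (log2 ratio -3.80, adjusted p = 1.9e-06). KRT39, another hair keratin, had a TR of 4.17 and 3.56 RPKM and an RA of 0.174, 0.131 and 0.488 RPKM (-3.57, adjusted p = 0.00013). KRT12, the keratin of the cornea, had a TR of 0.592 and 1.61 RPKM and an RA of 0.0247, 0.0446 and 0.0977 RPKM (-2.83, adjusted p = 0.00039). KRT37, KRT39 and KRT12 passed the filter on low values through TR alone. That selection favours a lower RA and a lower TA. These calls, and the lower calls of the same genes in TA against TR, are therefore no evidence about keratins as a group. The called genes in TA against RA were KRT9, the keratin of palms and soles (1.02, adjusted p = 0.027), and KRT37 (0.70, adjusted p = 0.035), whose RA and TA were at most 0.0779 RPKM. KRT9 passed the filter through TA alone, which favours a higher TA. Its higher calls in TA against RA and in TA against TR are therefore no evidence about keratins as a group. KRT17, named after its values were seen, had a TR of 1.69 and 1.13 RPKM, an RA of 2.35, 20.4 and 6.89 RPKM and a TA of 41.4 and 14.2 RPKM, and was higher in RA than TR (2.25, adjusted p = 0.038) and in TA than TR (4.04, adjusted p = 0.0036).

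Keratin filaments are anchored at desmosomes and hemidesmosomes by plakins, plakophilins and cadherins. The list of 20 genes used here also holds JUP, the integrins ITGA6 and ITGB4 and the classical cadherin CDH1. Of the 20, 15 were tested. In RA against TR, 8 were higher, 2 lower and 5 not called, beside 19.2% higher and 48.0% lower among all genes. The median log2 ratio of these linkers was 0.69, close to the median of 0.71 over the 10 keratins. In TA against RA, 1 was higher, beside 6.66% of all genes, and 4 were lower, with a median of 0.02. Without TR replicate 2 the calls in RA against TR numbered 5, and in TA against RA they numbered 2 without TA replicate 1 and 3 without TA replicate 2. The lower calls in TA against RA, 4 of 15, were close to the 29.2% of all genes. JUP, the desmosomal plaque protein plakoglobin, was the most abundant of them in RA and was higher in both ratios. Its TR was 52.5 and 29.3 RPKM, its RA 148, 111 and 151 RPKM and its TA 226 and 284 RPKM, with log2 ratios of 1.78 (adjusted p = 0.00076) and 0.91 (adjusted p = 0.041). The desmosomal cadherin DSG2 was higher in RA than TR (1.31, adjusted p = 0.0020).

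Among the linkers lower in TA than RA were 3 plakins, large proteins that tie filaments to junctions, while the fourth was PKP4, a plakophilin. The desmosomal plakin DSP (-0.48, adjusted p = 0.10) and PPL (log2 ratio near 0) did not pass. DST had an RA of 16.0, 16.9 and 19.3 RPKM and a TA of 4.77 and 3.98 RPKM (log2 ratio -1.97, adjusted p = 0.0021), and was also lower in RA than TR (-0.94, adjusted p = 0.0022). PLEC had an RA of 106, 99.3 and 99.7 RPKM and a TA of 36.0 and 31.8 RPKM (-1.58, adjusted p = 0.0096). EVPL had an RA of 19.1, 9.87 and 11.2 RPKM and a TA of 4.07 and 5.33 RPKM (-1.44, adjusted p = 0.0094), and was likewise lower in RA than TR (-1.05, adjusted p = 0.014). DST, PLEC and EVPL therefore had log2 ratios of TA to RA opposite in sign to those of KRT8, KRT18 and KRT19. DSP, PPL and PKP4 were named after their values were seen.

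Of 18 intermediate filament genes that are not keratins, 14 were tested. In RA against TR, 1 was higher, 6 lower and 7 not called, with a median log2 ratio of -0.96. The lower share was near the 48.0% of all genes, of which 19.2% were higher. In TA against RA, 1 was higher and none lower by limma, with 2 higher and 1 lower at an unadjusted p under 0.05 and a median of -0.20. Of all genes, 6.66% were higher and 29.2% lower in TA against RA. There, 4 were called without RA replicate 1, and none without RA replicate 3, TA replicate 1 or TA replicate 2. The gene with the highest RA was LMNA, which encodes the nuclear lamins A and C, with a log2 ratio of 1.19 (adjusted p = 0.0071) for RA to TR and 0.82 (adjusted p = 0.059) for TA to RA. The 3 largest falls from TR to RA were in IFFO1, an intermediate filament family member of unassigned class (-5.85), in GFAP of astrocytes (-5.06) and in the neurofilament gene NEFH (-4.77). Their TR was between 2.85 and 19.2 RPKM and their RA at most 0.455 RPKM. All 3 passed the filter on low values through TR alone, which favours a lower RA. VIM, the filament of mesenchymal cells, was low, with an RA of 1.57, 1.18 and 1.46 RPKM and a TA of 2.61 and 2.78 RPKM (0.90, adjusted p = 0.020).

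Genes with the most similar course over the mean TR, RA and TA were sought for KRT8, KRT18 and KRT19 among 10815 genes, by the root mean square difference of centred log2 profiles. With 3 points per profile, close matches are easily found among so many genes. For KRT8 they were WBSCR22, EMC7 and MAGOH, with differences of 0.0084, 0.015 and 0.021. For KRT18 they were ECH1, CD63 and EXOSC7, at 0.029, 0.046 and 0.086, and for KRT19 they were SMYD3, CCDC86 and KRTAP3-1, at 0.020, 0.025 and 0.033. Their levels were lower: WBSCR22 had a mean of 39.9, 128 and 274 RPKM in TR, RA and TA, and KRTAP3-1, a keratin-associated protein of hair, had 45, 84 and 182 RPKM.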

How the data were processed

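Log-phase HCT116 cells were assayed by GRO-seq (2 libraries), RNA-seq (3) and polysome profiling (2). According to the methods and the submitters' processing notes, the authors used TopHat to map reads to hg19 and HTSeq-count to count those in exons. The RPKM values that the authors deposited are given per gene and library. The counting mode, strand setting and annotation are not given in the sources used here. RPKM were used as deposited. Library sizes and reads were worked out from them only to describe depth, taking for each gene the smallest exon length that gives whole reads. With it, 100% of the values above 0 lay within 1e-04 of a whole read (times the square root of the reads where above 1). The length is chosen to make the reads whole, so this share is no check of the sizes or reads. On simulated data, 7 of 7 library sizes and 99.5% of 2000 genes were recovered.

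All 7 libraries entered 1 fit of log2(RPKM + 0.1) in limma 3.58.1 (R 4.3.3), with the variance moderated along a trend. The 14305 genes tested were those whose mean reached 1 RPKM in TR, RA or TA. Benjamini-Hochberg adjustment was over all of them, with a threshold of 0.05. On simulated data for TA against RA, 200 of 200 genes with a log2 change of 2 were recovered among 11632 genes. Ratios within libraries were compared by exact permutation tests. Exact Poisson 95% intervals cover counting error only. Gene models are from GENCODE release 44 on GRCh37, and other statistics used Python 3.11.15, scipy 1.17.1 and pandas 2.3.3.

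The 10 keratins and the other lists were chosen with earlier results of these data known. Of each other list, the gene with the highest RA and up to 3 called genes with the largest log2 ratio in RA against TR and in TA against RA were named, with the 3 genes most like KRT8, KRT18 and KRT19. Alternatives were pseudocounts of 0.01 and 1, no filter, a filter on each parameter, median centring, no variance trend, fits of 2 parameters alone, a replicate block, KRT81 and KRT86 merged, and each library left out in turn. Sequences before the start sites of the keratin genes are not reported here.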

Additional observations from a re-analysis of the deposited data

How the results depend on the processing

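Of 474 log2 ratios of the 10 keratins recomputed under alternatives, 401 kept their direction and their side of the threshold, 42 lost a call, 18 gained one and 13 changed sign. All 13 were in KRT7, KRT10, KRT15 and KRT80, which were not called. In RA against TR, KRT7 was -0.13 without RA replicate 2, KRT10 was 0.59 with median centring and 0.21 without TR replicate 2, and KRT80 was -0.21 with the replicate block, -0.47 without RA replicate 2 and -0.21 without RA replicate 3. With libraries left out, they ranged from -0.13 to 0.55, -0.38 to 0.21 and -0.47 to 1.1. In TA against RA, KRT10 was 0.25 without TA replicate 1, KRT15 was -0.19 without RA replicate 1 and -0.10 without TA replicate 2, and KRT80 was -0.21 without RA replicate 1, in ranges of -1.55 to 0.25, -0.19 to 0.70 and -0.21 to 1.36. In TA against TR, median centring gave 0.61 for KRT7 and 0.44 for KRT10, and KRT10 ranged from -1.63 without TA replicate 2 to 0.17 without TA replicate 1. The cause was not tested.

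The labels number the replicates in each assay, and the study split its cells between the 3 assays, but neither says that equal numbers mark 1 culture. The difference between replicates 1 and 2 correlated across 14305 genes with r = 0.0848 for TR and RA, 0.00943 for TR and TA and -0.505 for RA and TA, where the same TA difference gave 0.628 with that of RA replicates 2 and 3 and -0.0929 with that of RA replicates 1 and 3, and genes are not independent replicates. With the replicate block, the keratins called higher were 2 in RA against TR (KRT8 and KRT20), 0 in TA against RA and 5 in TA against TR, while in TA against RA 109 genes in all were higher and 1387 lower. In the block, linkers called were 5 in RA against TR and 3 in TA against RA, and other keratins and other intermediate filaments called in TA against RA were 0 each. The KRT8 to KRT18 differences were 0.58, -0.47 and 0.11 within pairs. Keratins called higher numbered 2 in RA against TR and 1 in TA against RA with no filter, and 2 in TA against RA with only the libraries of RA and TA in the fit. Keratins called lower in TA against TR numbered 1, KRT86, with a pseudocount of 1 and with the libraries of TA and TR alone.

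With each library left out in turn, keratins called higher ranged from 2 to 6 in RA against TR, 0 to 5 in TA against RA and 5 to 7 in TA against TR, and those called lower from 0 to 1 in each comparison. Other keratins called ranged from 3 to 8, 0 to 5 and 4 to 10, linkers from 5 to 11, 2 to 5 and 8 to 9, and other intermediate filaments from 6 to 9, 0 to 4 and 7 to 10, in the same order. The KRT8 to KRT18 difference ranged from 0.42 to 0.75, -0.70 to -0.24 and -0.12 to 0.34, and the values for TA against TR were -0.12 without TA replicate 2 and -0.06 without TR replicate 2. The type II to type I difference ranged from 0.59 to 1.01, -0.24 to -0.15 and 0.39 to 0.81, and without KRT8 and KRT18 it was -0.92, -0.34 and -1.26. In TA against RA, 198 genes were higher without TA replicate 1, 456 without TA replicate 2 and 422 without RA replicate 3, against 953, and 1803 were lower without TA replicate 1, against 4173.

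For the lists, other keratins called numbered 13 in RA against TR and 1 in TA against RA with no filter, 1 in TA against RA with a pseudocount of 0.01, and 4 there with median centring. With a filter of 1 RPKM in each parameter they numbered 2, 0 and 3 in the 3 comparisons. Other intermediate filaments called numbered 3, 2 and 5 under that filter. In all, 3656 genes were then lower in RA against TR and 4935 in TA against TR. Higher calls moved less, from 2743 to 2632 in RA against TR and from 2439 to 2336 in TA against TR. That filter leaves out genes with a mean under 1 RPKM in any parameter. Median centring gave 8 linkers in TA against RA and 14 in TA against TR, and 3 other intermediate filaments in TA against RA, where 2 were called with no variance trend. Depth limits the TR of KRT81, KRT7 and KRT20, which had at most 30 reads.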
